A study of Mus musculus with 11 samples.

Results

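The 50 genes described here encode proteins of DNA replication and S phase. They were chosen by gene symbol from the known roles of their products, with earlier results of these data known. All 50 were found among the 24411 gene symbols counted. They lie on 15 chromosomes and were ordered by role into 8 groups, which are origin licensing (10 genes), origin firing (8), polymerases and primase (6), sliding clamp, clamp loader and strand processing (8), nucleotide supply (5), chromatin and DNA methylation (6), repair and checkpoint (4) and control of entry into S phase (3). RNA sequencing had been done on 11 libraries. BKO-NSP (n = 3) are primary neurospheres, spheres of neural stem cells and their progeny that float in culture. They were grown from the SVZ, the subventricular zone, where adult neural stem cells lie beside the ventricles, of mice labelled Bmal1-/-. WT-NSP (n = 3) are neurospheres grown in the same way from wild-type mice. Both were expanded for 1 week with 20 ng/ml EGF, a mitogen for these cells, and 2 ug/ml heparin. BKO-CC (n = 2) and WT-CC (n = 3) are corpus callosum, a myelinated tract between the hemispheres, dissected from mice labelled Bmal1-/- and from wild-type mice. Mice of all 4 groups were 8 to 10 weeks old. The labels give no sex, strain or hour of collection, do not say which part of Bmal1 was removed, and do not name the animal or culture behind each library. The p-values thus compare differences with the spread between libraries, and that spread may be technical only.

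A cell can copy its DNA once per cycle because the work is done in steps. Before S phase the origin recognition complex, Cdc6 and Cdt1 load the MCM helicase onto DNA. At S phase entry the Dbf4-dependent kinase Cdc7 and cyclin E kinases fire the loaded origins, Cdc45 and the GINS complex join the helicase, and DNA polymerases alpha, delta and epsilon copy the opened strands behind it. Many genes of this machinery are known targets of the E2F transcription factors, which act at the passage from G1 to S phase, and quiescent and differentiated cells keep most of them low. Bmal1, whose gene symbol is Arntl, encodes a transcription factor of the circadian clock, which binds E-box sequences together with its partner Clock.

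To show the E2F sequences named above, promoters of the genes were read from RefSeq (GRCm38.p6, the assembly of mm10), which covered 42 of the 50 genes with 250 bases before and 50 bases after an annotated transcript start. Of these genes 36 had 1 start in the table and 6 had more, up to 3, and a gene counts as holding a motif where any of its starts does. On either strand, 1 of the E2F letters TTTGGCGC, TTTCGCGC or TTTCCCGC was present in 17 of these 42 genes (40.5%), against 2.12% of 27025 genes and 3.84% of the 11134 of them tested between wild-type sources. The letters CCAAT, the core of the NF-Y element, were present in 24 of 42 (57.1%), against 41.1% and 42.5% in the same backgrounds. The canonical E-box CACGTG was present in 6 of 42 (14.3%), against 8.09% and 11.3%. The 6 genes with the E-box were Chaf1a, Fen1, Lig1, Pola2, Rpa1 and Tyms. A match is a description of the letters in this window and not evidence of binding. The windows below give the 200 bases before an annotated transcript start, on the gene's strand, 5′ to 3′, with the E2F letters of either strand in capitals. They are shown because Hells, Pola1, Mcm6 and Uhrf1 hold such letters and were among the 10 genes of the set with the largest excess in wild-type neurospheres over callosum, and because Cdc6, the licensing factor, had, after Chaf1b, the largest excess of the set in 1 wild-type neurosphere library over the others. The start used lies at the outer end of the annotated gene in Mcm6 and inside it by 232 bases in Pola1, 442 in Cdc6, 728 in Hells and 976 in Uhrf1, whose other start, at the outer end, held no such letters. Hells lies on the plus strand of chromosome 19, Pola1 on the minus strand of X, Mcm6 on the minus strand of 1, Uhrf1 on the plus strand of 17 and Cdc6 on the plus strand of 11.
Hells chr19:38930790-38930989: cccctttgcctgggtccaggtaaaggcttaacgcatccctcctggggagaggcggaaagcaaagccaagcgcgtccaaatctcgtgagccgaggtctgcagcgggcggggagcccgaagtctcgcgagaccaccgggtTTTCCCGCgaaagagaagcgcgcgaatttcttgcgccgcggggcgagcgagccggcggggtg
Pola1 chrX:93632156-93632355: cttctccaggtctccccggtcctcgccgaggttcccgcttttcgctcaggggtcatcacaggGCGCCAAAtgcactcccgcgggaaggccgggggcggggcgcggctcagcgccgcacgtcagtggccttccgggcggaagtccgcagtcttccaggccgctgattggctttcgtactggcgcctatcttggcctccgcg
Mcm6 chr1:128359706-128359905: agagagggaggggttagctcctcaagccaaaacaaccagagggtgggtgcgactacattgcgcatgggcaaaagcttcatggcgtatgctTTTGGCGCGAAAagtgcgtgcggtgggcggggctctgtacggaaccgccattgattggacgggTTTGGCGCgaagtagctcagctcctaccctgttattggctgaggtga
Uhrf1 chr17:56304113-56304312: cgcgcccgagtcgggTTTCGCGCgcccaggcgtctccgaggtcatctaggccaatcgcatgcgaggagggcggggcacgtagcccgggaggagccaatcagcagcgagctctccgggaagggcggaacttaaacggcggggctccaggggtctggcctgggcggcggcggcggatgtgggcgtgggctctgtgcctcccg
Cdc6 chr11:98907951-98908150: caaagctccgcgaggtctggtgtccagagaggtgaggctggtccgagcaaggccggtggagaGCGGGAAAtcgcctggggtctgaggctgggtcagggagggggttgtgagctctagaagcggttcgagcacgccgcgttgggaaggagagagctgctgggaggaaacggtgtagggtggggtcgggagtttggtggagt
The first match began at position -62 relative to the start in Hells, -138 in Pola1, -110 in Mcm6, -185 in Uhrf1 and -138 in Cdc6. Mcm6 holds 3 matches, of which the first pair overlap. Of the other 6 genes with the largest excess, Dbf4, Rrm1, Rrm2, Rfc4 and Mcm10 had a promoter entry and no match to these letters, and Gins1 had no entry. Chaf1b, named above as standing before Cdc6, also had an entry and no match.

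Some facts of the libraries touch every value below. Each library held 17450270 to 19717848 counts in genes. CPM are counts scaled to an equal library total, here after correction by the TMM method, which balances libraries on the bulk of their genes, and all levels are given in this unit. A gene with no count could lie at up to 3 counts, which are 0.131 to 0.136 CPM in neurosphere libraries and 0.202 to 0.211 CPM in callosum libraries. Unmapped reads took 13.7% to 22.6% of reads in neurosphere libraries and 7.77% to 8.46% in callosum libraries, and the first replicate of BKO-NSP had the highest share. A difference in library preparation between sources cannot be told apart from the source. Sums of progenitor, oligodendrocyte and neuron markers fitted the labelled sources. Of 12 progenitor markers 9 were higher and 1 lower in WT-NSP than in WT-CC (edgeR, adjusted p under 0.05). Of 10 neuroblast markers 3 were higher and 7 lower, and of 8 astrocyte markers 5 were higher and 2 lower. The summed level of 12 neural progenitor markers was 5874 to 7920 CPM in BKO-NSP, 4649 to 5858 in WT-NSP, 531 to 726 in BKO-CC and 503 to 627 in WT-CC. Summed over 10 genes of mature oligodendrocytes, the level was 1487 to 2554 CPM in BKO-NSP, 1988 to 2098 in WT-NSP, 25062 to 35219.5 in BKO-CC and 22598 to 34148 in WT-CC. Summed over 10 neuronal genes, the level was 139 to 150.0 CPM in BKO-NSP, 125 to 152 in WT-NSP, 15573 to 17192 in BKO-CC and 14180.1 to 19127 in WT-CC, so the dissected tract held neuronal RNA as well. Arntl, the targeted gene, had 40.5, 42.3 and 48.2 CPM in BKO-NSP, against 37.9, 48.8 and 45.3 CPM in WT-NSP. Arntl had 32.6 and 40.8 CPM in BKO-CC, against 39.7, 36.3 and 33.0 CPM in WT-CC. Counts over the whole gene thus did not separate the genotypes, and with the removed part unknown they do not check the labels. Of the 50 genes, 15 overlap in an exon with a gene of the other strand, and reads of such stretches cannot be told apart here. Reads ambiguous between genes were left unassigned, at 0.772% to 1.40% of reads a library, so these stretches may be undercounted. Of the 50 genes, 8 share more than 10% of their 50-base stretches with transcripts of another gene. The largest shares were those of Fen1 (81.2%), Gins2 (70.4%) and Chaf1a (48.0%), so the counts of these 3 genes are uncertain.

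Replication genes made up 0.204% to 0.281% of gene counts in BKO-NSP libraries and 0.158% to 0.322% in WT-NSP libraries, against 0.0392% to 0.040% in BKO-CC and 0.0401% to 0.0446% in WT-CC. Their summed level was 2172, 2007 and 1760 CPM in the 3 BKO-NSP libraries and 2713, 1558 and 1383 CPM in the 3 WT-NSP libraries. In callosum it was 499 and 488 CPM in BKO-CC and 497, 524 and 507 CPM in WT-CC. Every neurosphere library lay above every callosum library, and the 2 genotypes overlapped in neurospheres. In bulk RNA, fewer cells of a type and less RNA per cell cannot be told apart, so these sums do not separate the share of cells in S phase from the amount of transcript in each.

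**Figure D1:**
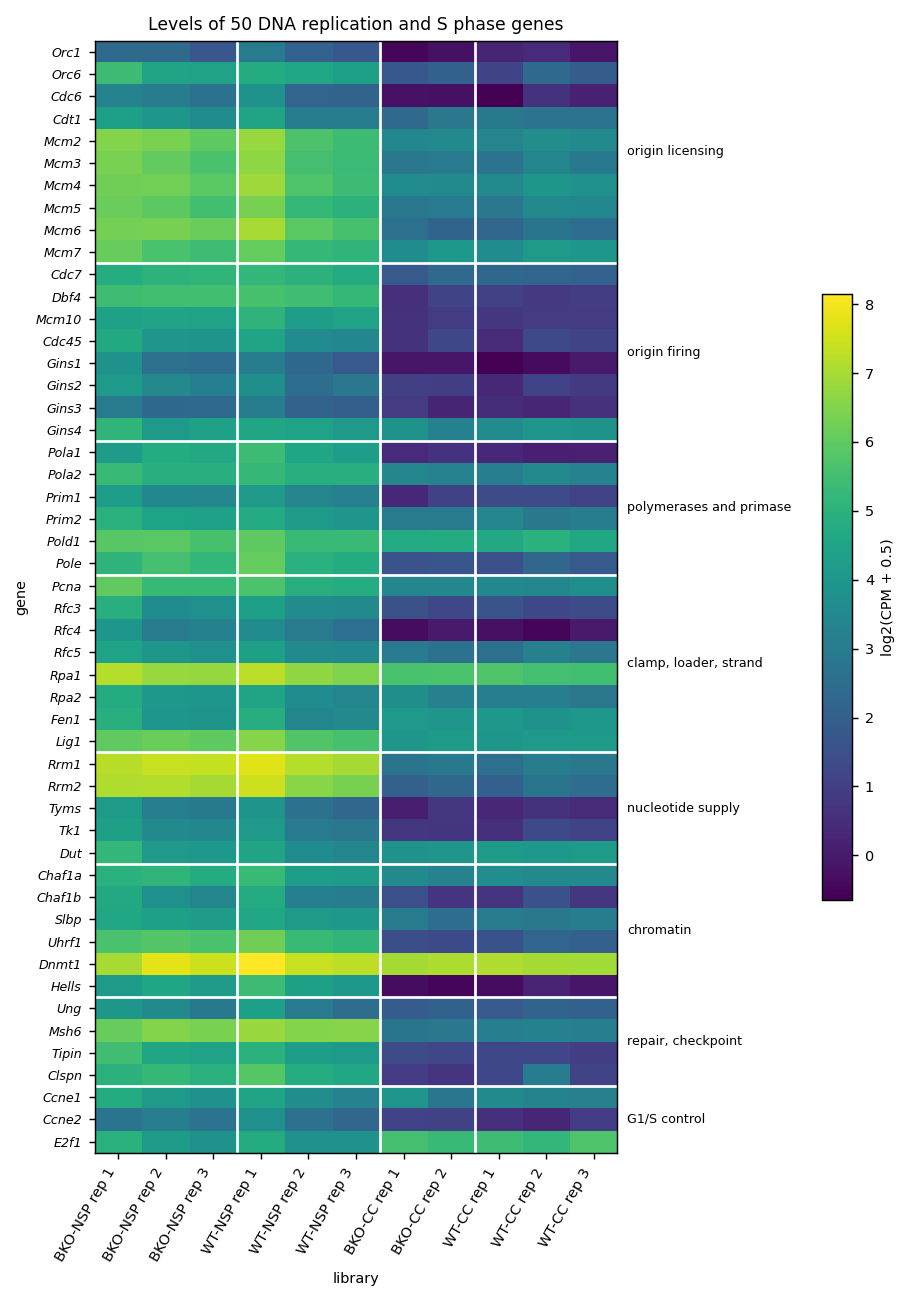
Heat map of the level of each of the 50 genes (rows, grouped by role) in each of the 11 libraries (columns), as log2(CPM + 0.5). The 6 neurosphere columns are brighter than the 5 callosum columns for most genes, E2f1 is darker in them, Fen1, Dut, Ccne1 and Dnmt1 overlap between sources in at least 1 genotype, and the first WT-NSP replicate is the brightest of its group throughout.

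Between wild-type sources, 46 of the 50 genes were higher in WT-NSP than in WT-CC, and 1, E2f1, was lower (edgeR's quasi-likelihood test, Benjamini-Hochberg adjusted p under 0.05 over 14733 genes). Across all genes tested, 43.8% were higher and 42.0% were lower. The median log2 fold change of the 50 genes was 2.68, which is 6.4-fold, beside a median of 0.06 over all genes. All WT-NSP libraries lay above all WT-CC libraries for 46 genes, as they did for 44.9% of all genes. Between sources of the other genotype, which share no library with the first comparison, 44 genes were higher in BKO-NSP than in BKO-CC and E2f1 was again lower. There the background was 37.5% higher and 35.1% lower, the median log2 fold change of the set was 3.01, and the libraries stood apart with BKO-NSP above for 46 genes, as they did for 42.6% of all genes. Leaving out the first BKO-NSP replicate gave 46 genes higher and 1 lower, beside 43.4% of all genes higher, with a median of 2.70. Scaled to library totals without TMM, the median over all genes moved to 0.57 between wild-type sources and to 0.68 between Bmal1-/- sources, and the medians of the 50 genes moved to 3.19 and 3.62, so the set stayed above the shift of all genes. Under that scaling 7696 genes were higher and 4979 lower between wild-type sources, where TMM gave 6450 and 6195. Between Bmal1-/- sources library totals gave 7010 higher and 3843 lower, where TMM gave 5580 and 5231.

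**Figure D2:**
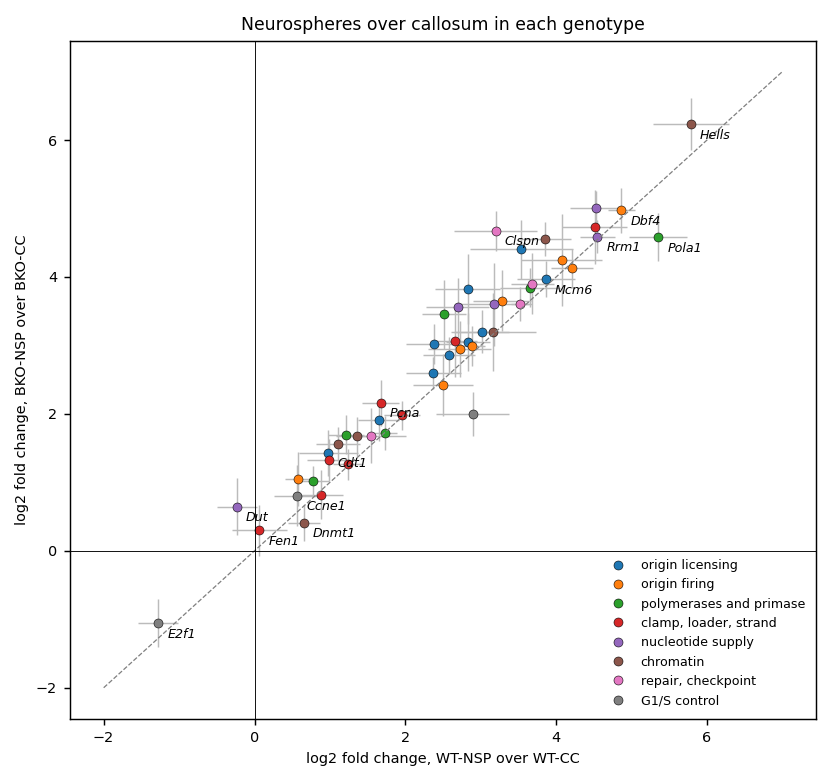
Log2 fold change of each gene in WT-NSP over WT-CC (horizontal axis) and in BKO-NSP over BKO-CC (vertical axis), coloured by role, with bars for the standard error and a dashed line of equal values. Most points lie far above 0 on both axes, Hells is the highest, E2f1 is below 0 on both, and Fen1, Dut and Ccne1 lie near 0.

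Origin licensing genes, whose products mark and prepare origins in G1, were higher in neurospheres for 10 of 10 genes in both genotypes, with medians of 2.70 (WT-NSP over WT-CC) and 3.04 (BKO-NSP over BKO-CC) on the log2 scale. Mcm2, a helicase subunit, had 91.3, 82.5 and 62.7 CPM in BKO-NSP and 109.7, 51.6 and 40.8 CPM in WT-NSP, and 10.5 and 11 CPM in BKO-CC and 9.73, 12.4 and 11.4 CPM in WT-CC. Its log2 fold change was 2.58 ± 0.35 (SE) between wild-type sources (edgeR adjusted p = 7.15e-05) and 2.86 ± 0.27 between Bmal1-/- sources. The helicase subunit Mcm6 had 78.4, 80.1 and 70.3 CPM in BKO-NSP and 127, 58.9 and 48.2 CPM in WT-NSP, and 5.57 and 4.06 CPM in BKO-CC and 4.24, 6.32 and 5.33 CPM in WT-CC. With a log2 fold change of 3.87 ± 0.38 between wild-type sources, Mcm6 had the largest excess of the licensing group there. Cdc6, the ATPase that helps to load the helicase, had 9.34, 7.94 and 5.70 CPM in BKO-NSP and 13.7, 4.11 and 3.99 CPM in WT-NSP, and 0.352 and 0.350 CPM in BKO-CC and 0.139, 1.08 and 0.623 CPM in WT-CC. The callosum values of Cdc6 rest on 2 to 16 counts a library, and the first WT-NSP replicate stood more than 3 times above the other 2. Orc1 and Orc6, subunits of the origin recognition complex, rose by 2.83 ± 0.43 and 2.83 ± 0.29 between wild-type sources. Cdt1, which brings the helicase to origins, had the smallest excess of the group between wild-type sources (0.98 ± 0.39, edgeR adjusted p = 0.041), and its call was lost without the first WT-NSP replicate and without any 1 of the WT-CC libraries. Between Bmal1-/- sources the call of Cdt1 was lost without the first BKO-CC replicate.

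The 6 subunits of the helicase act as a single ring, and their levels per length of transcript could be compared. Taking CPM per kb of the longest transcript, the highest subunit was 1.36 to 1.45 times the lowest in the BKO-NSP libraries and 1.24 to 1.43 times in the WT-NSP libraries. In callosum the same ratio was 3.13 and 5.83 in BKO-CC and 3.93 to 4.18 in WT-CC, with Mcm7 highest and Mcm6 lowest in all 5 libraries. In the callosum libraries Mcm7 had 3.90 to 5.69 CPM per kb and Mcm6 had 0.93 to 1.45. The Mcm7 gene overlaps Ap4m1 and Cops6 on the opposite strand and shares 34.2% of its 50-base stretches with other genes. Those genes' part in its callosum level was not tested.

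Origin firing genes were higher in neurospheres for 8 of 8 genes in both genotypes, with medians of 3.08 and 3.32. Dbf4, the activating subunit of the Cdc7 kinase, varied little between neurosphere libraries, with 42.3, 44.7 and 44.5 CPM in BKO-NSP and 47.3, 43.5 and 37.0 CPM in WT-NSP. In callosum Dbf4 had 0.987 and 1.75 CPM in BKO-CC and 1.60, 1.28 and 1.45 CPM in WT-CC. Its log2 fold change between wild-type sources was 4.86 ± 0.18, a 29.1-fold excess (edgeR adjusted p = 1.08e-08). Cdc45, a helicase cofactor, had 25.7, 14.9 and 14.6 CPM in BKO-NSP and 21.8, 11.7 and 10.5 CPM in WT-NSP, and 1.06 and 1.82 CPM in BKO-CC and 0.834, 1.95 and 1.66 CPM in WT-CC. The excess of Cdc45 was 3.28 ± 0.38 between wild-type sources. Mcm10, which binds the active helicase, had 20.5, 22 and 21.0 CPM in BKO-NSP and 33.4, 18.9 and 21.0 CPM in WT-NSP, against 1.06 to 1.39 CPM over the callosum libraries. Gins1 to Gins4 encode the 4 subunits of GINS, which holds the helicase to the polymerase, and their excesses between wild-type sources ran from 0.57 ± 0.17 for Gins4 to 4.07 ± 0.54 for Gins1. Gins4 stood apart because it was high in callosum, with 13.7 and 8.75 CPM in BKO-CC and 11.7, 14.7 and 14.0 CPM in WT-CC, beside 33.7, 16.5 and 20.5 CPM in BKO-NSP and 23.3, 20.8 and 16.6 CPM in WT-NSP. Gins1 had 0.423 and 0.420 CPM in BKO-CC and 0.139, 0.269 and 0.485 CPM in WT-CC, which are 2 to 7 counts a library. Per kb of transcript, the highest GINS subunit was 5.48 to 11.3 times the lowest in neurosphere libraries and 23.3 to 67.7 times in callosum libraries, with Gins4 highest in all 11. Gins2 was the lowest in the second WT-NSP replicate, which gave the 11.3, and in the third WT-CC replicate. It shares 70.4% of its 50-base stretches, and exons, with Gse1 on the opposite strand. The part of this overlap and of the transcript chosen for length was not tested. Between Bmal1-/- sources the Gins4 excess was 1.05 ± 0.39 (edgeR adjusted p = 0.0448), and the call was lost under RLE scaling, under limma-voom, without the third BKO-NSP replicate and without either BKO-CC library.

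Polymerases and primase, the enzymes that make DNA and its RNA primers, were higher in neurospheres for 6 of 6 genes in both genotypes, with medians of 2.12 and 2.59. Pola1, the catalytic subunit of polymerase alpha, had 17.9, 26.7 and 25 CPM in BKO-NSP and 41.3, 22.7 and 19.0 CPM in WT-NSP, and 0.846 and 1.05 CPM in BKO-CC and 0.765, 0.605 and 0.623 CPM in WT-CC. The log2 fold change of Pola1 was 5.35 ± 0.38 between wild-type sources and 4.58 ± 0.35 between Bmal1-/- sources. Pold1, the catalytic subunit of polymerase delta, had the smallest excess of the group, 0.78 ± 0.20 and 1.02 ± 0.21, and stood at 26.3 and 26.7 CPM in BKO-CC and 24.7, 31.1 and 24.5 CPM in WT-CC. The values of Pold1 in neurospheres were 57.1, 58.8 and 47.8 CPM in BKO-NSP and 62.0, 39.1 and 38.2 CPM in WT-NSP. Pole, the catalytic subunit of polymerase epsilon, had an excess of 3.65 ± 0.40 between wild-type sources.

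Clamp, clamp loader and strand genes were higher for 7 of 8 genes between wild-type sources and for 6 of 8 between Bmal1-/- sources, with medians of 1.45 and 1.65, the smallest of the groups that act at the fork. Pcna, the sliding clamp that tethers polymerases to DNA, had 64.0, 37.1 and 37.1 CPM in BKO-NSP and 50.04, 29.2 and 27.6 CPM in WT-NSP, and 10.2 and 10.2 CPM in BKO-CC and 10.6, 9.88 and 12.7 CPM in WT-CC. Its log2 fold change was 1.67 ± 0.24 between wild-type sources and 2.16 ± 0.33 between Bmal1-/- sources. Rfc4, a subunit of the clamp loader, had 15.2, 7.46 and 8.90 CPM in BKO-NSP and 11.5, 7.23 and 5.41 CPM in WT-NSP, against 0.202 to 0.490 CPM in callosum, and its excess of 4.51 ± 0.43 between wild-type sources was the largest of the group. Rpa1 and Rpa2, subunits of the protein that coats single-stranded DNA, had excesses of 1.23 ± 0.19 and 0.89 ± 0.29 between wild-type sources, and the call of Rpa2 was lost there without the third WT-CC replicate. Rpa2 was not called between Bmal1-/- sources (0.82 ± 0.35, edgeR adjusted p = 0.0718), and was called there without the first BKO-NSP replicate (0.53, adjusted p = 0.0470). Rfc5, another clamp loader subunit, was not called between Bmal1-/- sources without the second BKO-CC replicate. Fen1, the flap nuclease that trims Okazaki fragments, had 29.6, 15.2 and 14.5 CPM in BKO-NSP and 28.0, 9.95 and 10.7 CPM in WT-NSP, and 17 and 14.8 CPM in BKO-CC and 16.0, 14.0 and 16.1 CPM in WT-CC. Fen1 was called in neither source comparison, with differences of 0.07 (95% interval -0.75 to 0.88) between wild-type sources and 0.30 (-0.59 to 1.18) between Bmal1-/- sources. Without the first WT-NSP replicate Fen1 was lower in WT-NSP than in WT-CC, with a log2 fold change of -0.57, and the reads it shares with its neighbours make either value uncertain. In that fit 3 of the 50 genes were lower, beside 43.3% of all genes.

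Nucleotide supply genes were higher for 4 of 5 genes in both genotypes, with medians of 3.17 and 3.60. Rrm1 and Rrm2 encode the large and small subunits of ribonucleotide reductase, the enzyme that makes deoxynucleotides. Rrm2 had 137, 140.1 and 124 CPM in BKO-NSP and 178, 95.7 and 81.3 CPM in WT-NSP, and 3.67 and 4.55 CPM in BKO-CC and 3.68, 6.38 and 5.20 CPM in WT-CC. Its log2 fold change was 4.52 ± 0.34 between wild-type sources and 5.00 ± 0.26 between Bmal1-/- sources. Rrm1 had 147, 170.4 and 167 CPM in BKO-NSP and 209.6, 143 and 126 CPM in WT-NSP, against 5.63 to 7.86 CPM in callosum. Per kb of transcript Rrm2 was the most abundant of the 50 genes in both neurosphere groups, with means of 61.0 in BKO-NSP and 54.0 in WT-NSP, while in callosum the most abundant was Dnmt1. Dut, which removes dUTP from the nucleotide pool, was called in neither comparison, with 35.8, 16.3 and 15.9 CPM in BKO-NSP and 21.9, 11.8 and 9.99 CPM in WT-NSP, and 13.7 and 14.9 CPM in BKO-CC and 17.4, 16.1 and 17.4 CPM in WT-CC. The difference of Dut was -0.23 (95% interval -0.84 to 0.37) between wild-type sources and 0.64 (-0.34 to 1.63) between Bmal1-/- sources. Without the first WT-NSP replicate Dut was lower in WT-NSP than in WT-CC, at -0.64 ± 0.14 (edgeR adjusted p = 0.00129).

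Chromatin and DNA methylation genes were higher for 6 of 6 genes between wild-type sources and for 5 of 6 between Bmal1-/- sources, with medians of 2.27 and 2.43. Hells, a remodelling helicase of the SNF2 family that helps to maintain DNA methylation, had the largest excess of the 50 genes in both genotypes. It had 17.2, 22.4 and 18.0 CPM in BKO-NSP and 41.6, 19.8 and 15.9 CPM in WT-NSP, and 0.282 and 0.210 CPM in BKO-CC and 0.278, 0.672 and 0.416 CPM in WT-CC. The log2 fold change of Hells was 5.78 ± 0.50 between wild-type sources and 6.23 ± 0.38 between Bmal1-/- sources, and rests on 3 to 10 counts in each callosum library. Uhrf1, which recruits the maintenance methyltransferase to newly copied DNA, had 49.0, 55.2 and 49.0 CPM in BKO-NSP and 76.0, 39.3 and 34.3 CPM in WT-NSP, and 2.26 and 2.03 CPM in BKO-CC and 2.50, 4.17 and 3.60 CPM in WT-CC. Dnmt1, that methyltransferase, was high in both sources, with 126, 219 and 178 CPM in BKO-NSP and 284, 169 and 156 CPM in WT-NSP, and 125 and 134 CPM in BKO-CC and 136, 125 and 121 CPM in WT-CC. The excess of Dnmt1 was 0.66 ± 0.21 between wild-type sources (edgeR adjusted p = 0.0147) and 0.41 ± 0.26 between Bmal1-/- sources (0.202). The wild-type call of Dnmt1 was lost without the third WT-CC replicate (adjusted p = 0.0521) and with an offset for transcript length (0.215). It was called between Bmal1-/- sources without the first BKO-NSP replicate (0.61, adjusted p = 0.00259). Chaf1a and Chaf1b, subunits of the complex that places histones on new DNA, had excesses of 1.11 ± 0.29 and 3.17 ± 0.56 between wild-type sources.

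Repair and checkpoint genes were higher for 4 of 4 genes in both genotypes, with medians of 3.36 and 3.75. Msh6, a mismatch repair protein, had 68.3, 90.5 and 83.4 CPM in BKO-NSP and 109, 91.8 and 94.0 CPM in WT-NSP, and 6.34 and 6.72 CPM in BKO-CC and 8.27, 8.74 and 8.38 CPM in WT-CC. Its excess between wild-type sources was 3.52 ± 0.12. Clspn, the mediator through which stalled forks activate the checkpoint kinase Chk1, had 31.6, 36.8 and 30.0 CPM in BKO-NSP and 55.9, 27.2 and 24.3 CPM in WT-NSP, and 1.41 and 1.12 CPM in BKO-CC and 1.88, 7.93 and 1.73 CPM in WT-CC. The second WT-CC replicate thus held more than 4 times the Clspn of any other callosum library. Clspn had an excess of 3.20 ± 0.55 between wild-type sources and 4.28 ± 0.47 without that library. Tipin, a fork protection factor, and Ung, which removes uracil from DNA, rose by 3.68 ± 0.29 and 1.55 ± 0.47 between wild-type sources. The call of Ung between Bmal1-/- sources was lost without either BKO-CC library, which left 3 of 4 genes of the group called.

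The 3 genes of S phase entry differed from each other. E2f1, a transcription factor that activates many genes of the set, had 30.6, 18.1 and 14.2 CPM in BKO-NSP and 26.8, 13.6 and 14.2 CPM in WT-NSP, and 46.6 and 39.6 CPM in BKO-CC and 42.1, 35.8 and 53.1 CPM in WT-CC. All neurosphere libraries were below all callosum libraries. The log2 fold change of E2f1 was -1.28 ± 0.27 between wild-type sources (edgeR adjusted p = 0.00141) and -1.06 ± 0.35 between Bmal1-/- sources (0.0290). The second of these E2f1 calls was lost when any library but the first BKO-NSP replicate was left out (adjusted p = 0.0864 to 0.148) and under library totals (-0.43, adjusted p = 0.342). Ccne1 and Ccne2 encode the E cyclins that drive entry into S phase. Ccne2 had excesses of 2.89 ± 0.49 and 2.00 ± 0.32. Ccne1 had 26.6, 16.5 and 14.0 CPM in BKO-NSP and 22.1, 12.2 and 9.01 CPM in WT-NSP, and 15.0 and 6.58 CPM in BKO-CC and 11, 9.34 and 8.66 CPM in WT-CC. Ccne1 was not called, with 0.57 (95% interval -0.12 to 1.25) between wild-type sources and 0.80 (-0.26 to 1.87) between Bmal1-/- sources. Without the third WT-NSP replicate it was called between wild-type sources, at 0.83 (edgeR adjusted p = 0.0130).

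Wider lists followed the same direction. Of 40 other genes of replication, 35 were higher and 3 lower in WT-NSP than in WT-CC, and 35 were higher and 0 lower in BKO-NSP than in BKO-CC (edgeR, adjusted p under 0.05; for the 0, no further member had an unadjusted p under 0.05). All 20 genes of a list for G2 phase and mitosis were higher in neurospheres in both genotypes. Their medians, 6.54 and 6.84 on the log2 scale, were above those of the 50 replication genes. Between callosum genotypes 6 of the 20 genes, and 5 of the 50, were too low to be tested. Ratios over such low callosum counts are uncertain in size, and so is the gap between the lists. Mki67, a marker of cycling cells, had 242, 628 and 611 CPM in BKO-NSP and 708, 576 and 512 CPM in WT-NSP, against 1.34 and 1.75 CPM in BKO-CC and 1.67, 4.84 and 2.63 CPM in WT-CC. In callosum the G2 and mitosis genes summed to 26.4 and 29.8 CPM in BKO-CC and 26.6, 47.4 and 32.6 CPM in WT-CC, while the 50 replication genes summed to 488 to 524 CPM over the same libraries. The lists differ in their number of genes, and the larger sum is spread unevenly. Dnmt1 alone held 121 to 136 CPM of it, and 6 to 12 of the 50 genes lay under 1 CPM in each callosum library.

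**Figure D3:**
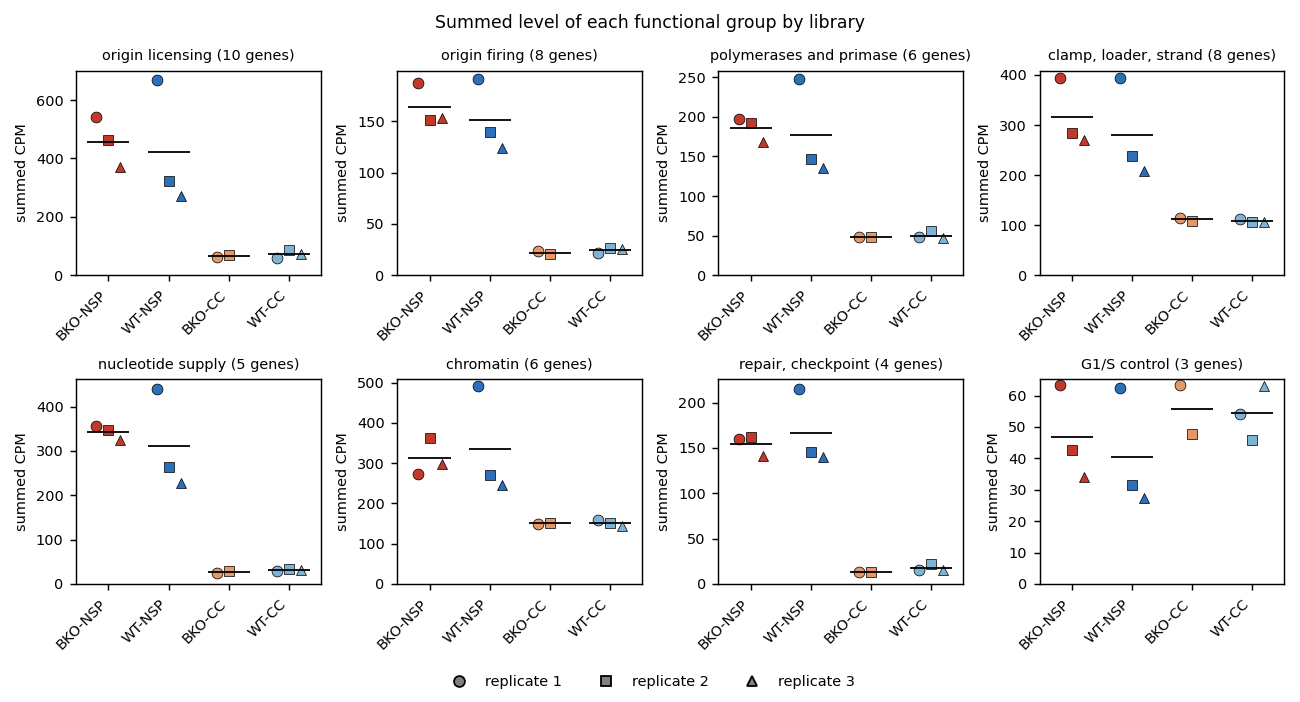
Summed CPM of each of the 8 functional groups in every library (points, shaped by replicate number) with the group mean (line), each axis from 0. The first WT-NSP replicate is the highest wild-type neurosphere library in every panel, and only in the panel of S phase entry do callosum libraries reach the level of neurospheres.

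Between genotypes in neurospheres, none of the 50 genes passed the test. No member was called between BKO-NSP and WT-NSP by edgeR, DESeq2 or limma-voom, and none had an unadjusted p under 0.05 in edgeR. Over all 13968 genes tested 0.00716% were called, and 422 had an unadjusted p under 0.05. The median log2 fold change of the set was 0.19, with 40 genes above 0 and a range from -0.43 (Hells) to 0.66 (Gins1), beside a median of -0.01 over all genes. Intervals were wide. Mcm2 differed by 0.23 (95% interval -0.61 to 1.06), Rrm2 by 0.17 (-0.50 to 0.85), Pcna by 0.37 (-0.35 to 1.09), Cdc6 by 0.07 (-1.07 to 1.21), Uhrf1 by 0.03 (-0.65 to 0.72) and E2f1 by 0.20 (-0.64 to 1.05). The 6 genes with the smallest unadjusted p were Msh6, Dut, Gins1, Gins2, Prim2 and Hells, from 0.139 for Msh6 (-0.28 ± 0.17) to 0.262 for Hells (-0.43 ± 0.35), all with an edgeR adjusted p of 0.798. Msh6 was the 1 gene of the 50 whose groups did not overlap, with 68.3, 90.5 and 83.4 CPM in BKO-NSP, against 109, 91.8 and 94.0 CPM in WT-NSP, where 12% of all genes did not overlap. A list of 28 genes of G1 and S phase control held cyclins, their kinases and inhibitors, retinoblastoma, E2F and Tfdp genes, Cdc25a and Skp2. Of the 40 other replication genes, these 28 genes and the 20 of G2 phase and mitosis, 0, 0 and 0 were called. In edgeR 0, 1 and 1 of them had an unadjusted p under 0.05.

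Single libraries stood apart within both neurosphere groups. The first WT-NSP replicate was the highest of its group for 50 of 50 genes, where it was the highest for 41.7% of all genes. It stood at a median of 1.96 times the mean of the other WT-NSP libraries, from 1.17 for Dbf4 to 3.19 for Chaf1b, as a ratio of CPM + 0.5. By role the median ratio ran from 1.68 for polymerases and primase to 2.34 for origin licensing. Msh6, Dbf4, Orc6, Gins4, Cdc7 and Pola2 were all under 1.3, and Cdc6 and Chaf1b were above 3. The 40 other replication genes summed to 1735 CPM in that library, against 1416 and 1314 CPM in the other two, and the G2 and mitosis genes to 2545, against 2194 and 2013 CPM. In the same library 8 markers of oligodendrocyte precursors summed to 117 CPM, against 294 and 401 CPM. Of these 8 markers 2 were higher and 5 lower in WT-NSP than in WT-CC (edgeR, adjusted p under 0.05). Between neurosphere genotypes 2 of the 8 were too low to be tested, so their sum does not stand for the markers as a whole. The first BKO-NSP replicate was also low in this sum, at 93.3 CPM, against 273 and 329 CPM in its group. The part of these precursor cells in the level of the replication genes was not tested.

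The first BKO-NSP replicate stood apart in another way. It was the highest of its group for 31 genes and the lowest for 9, and its ratio to the other two fell with the length of the transcript. Across the 50 genes the Spearman correlation of that ratio with length was -0.71, and across 13476 genes it was -0.67. For the first WT-NSP replicate it was 0.16 across the 50 genes. These correlations run across genes of the same libraries, which are not independent replicates. The 25 genes with the shortest transcripts had a median ratio of 1.72 in the first BKO-NSP replicate and the 25 with the longest had 1.04. Gins1 (1087 bases), Rfc3 (2726 bases) and Tyms (3884 bases) had ratios of 2.48, 2.32 and 2.21. Dnmt1 (5870 bases), Pola1 (5346 bases) and Msh6 (4251 bases) had ratios of 0.638, 0.698 and 0.787. The G2 and mitosis genes summed to 1618 CPM in this library, against 2420 and 2555 CPM in the other BKO-NSP libraries, the opposite side from most of the replication genes. Some of these genes have long transcripts. Mki67 (10061 bases) had 242 CPM, against 628 and 611 CPM, and Top2a (5221 bases) had 264 CPM, against 461 and 481 CPM. Others are short, such as Ccnb2 (1531 bases). The part of transcript length in this sum was not tested.

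**Figure D4:**
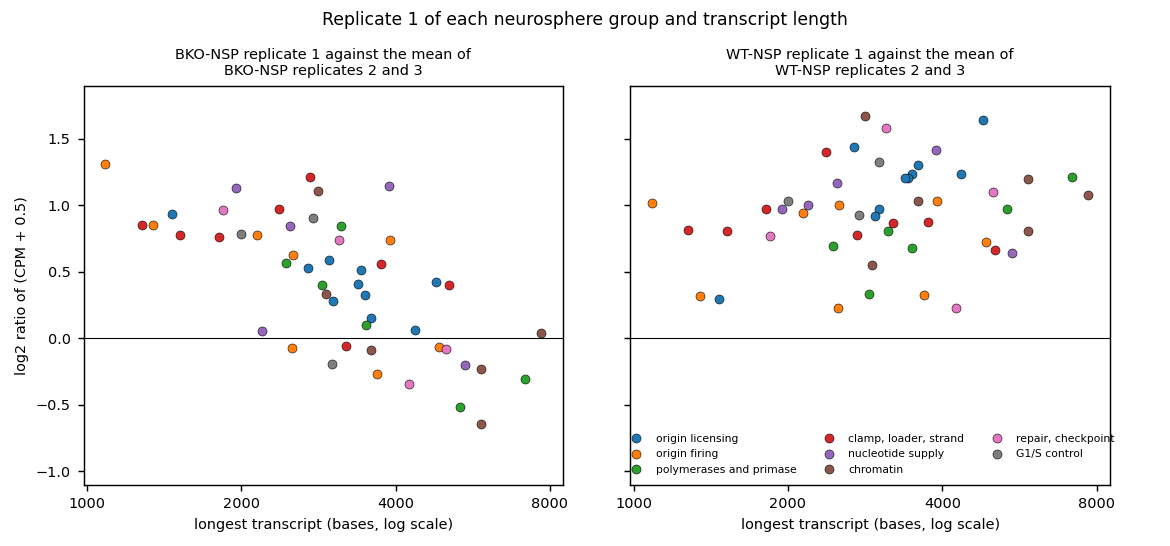
Log2 ratio of the first replicate to the mean of the other 2 replicates for each of the 50 genes, against the length of the longest transcript on a log scale, in BKO-NSP (left) and WT-NSP (right). In BKO-NSP the ratio falls with length (Spearman -0.71), and in WT-NSP all 50 points lie above 0 with no such slope (0.16).

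The genotype comparison in neurospheres was therefore repeated without these libraries. Without the first BKO-NSP replicate, 0 of the 50 genes were called by edgeR and 0 had an unadjusted p under 0.05. Over all 14094 genes tested 0.0355% were called, and 547 had an unadjusted p under 0.05. The median log2 fold change of the set was -0.02 and 22 of its genes were above 0. Gins1 then had 0.04 ± 0.40, Dut 0.14 ± 0.32 and Pcna 0.06 ± 0.26, where the fit of all libraries gave 0.66, 0.64 and 0.37. Without the first WT-NSP replicate, 0 genes were called, the median was 0.60, 49 genes were above 0 and 17 had an unadjusted p under 0.05, beside 4.02% of all genes. Without the third WT-NSP replicate the median was -0.02. Without both first replicates, a choice made after the values were seen, 4 genes were called higher in BKO-NSP, beside 0.869% of all genes. They were Rrm2 (0.58 ± 0.10), Chaf1a (0.76 ± 0.14), Uhrf1 (0.50 ± 0.11) and Cdt1 (0.78 ± 0.17), with edgeR adjusted p from 0.0129 to 0.0392. In that fit the median was 0.41 and 47 genes were above 0. The first WT-NSP replicate is the one that is high in these same genes, so leaving it out selects on the outcome, and the direction of the set in neurospheres rested on which libraries were kept.

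**Figure D5:**
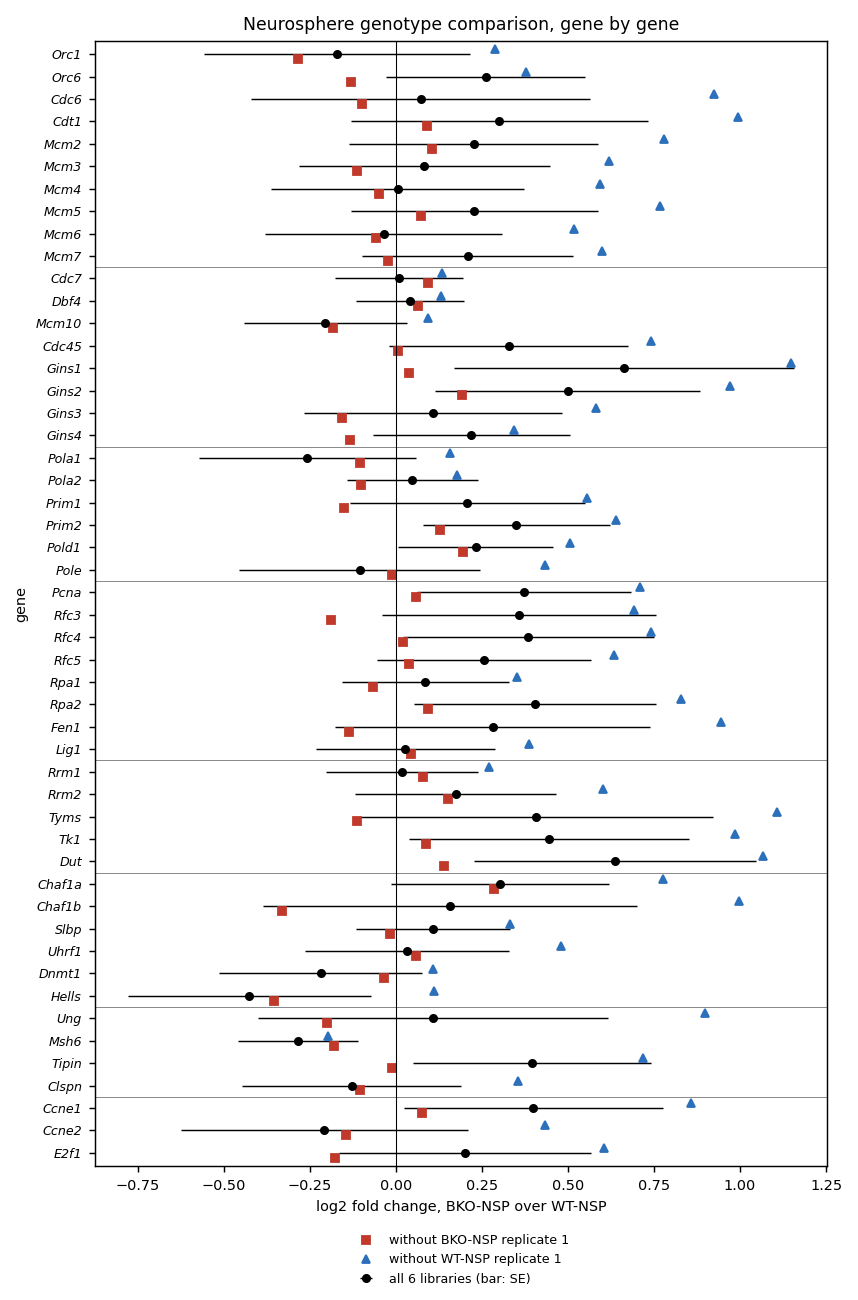
Log2 fold change of each gene in BKO-NSP over WT-NSP with all 6 libraries (black, bar for the standard error), without the first BKO-NSP replicate (red squares) and without the first WT-NSP replicate (blue triangles). Black points lie between -0.43 and 0.66, red squares have a median of -0.02, and blue triangles have a median of 0.60 with 49 of 50 above 0.

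Between genotypes in callosum, 45 of the 50 genes passed the filter on low counts, and none of them passed the test. Orc1, Cdc6, Gins1, Rfc4 and Hells were too low to be tested. No gene of the set was called between BKO-CC and WT-CC by edgeR, DESeq2 or limma-voom, and none had an unadjusted p under 0.05 in edgeR. Over all 14198 genes tested 0.909% were called, and 1969 had an unadjusted p under 0.05. The median log2 fold change was -0.04, with 14 genes above 0. The groups did not overlap for 8 of the 45 genes, beside 32.5% of all genes. Pola1, Rpa2 and Ccne2 lay above, and Prim1, Dut, Uhrf1, Msh6 and Clspn lay below in BKO-CC. The 6 genes with the smallest unadjusted p were Rpa2, Uhrf1, Msh6, Clspn, Prim1 and Ccne2. Rpa2 had 13.0 and 8.68 CPM in BKO-CC, against 8.34, 8.47 and 6.72 CPM in WT-CC, a difference of 0.48 (95% interval -0.0021 to 0.96, edgeR adjusted p = 0.361). Uhrf1 had 2.26 and 2.03 CPM in BKO-CC, against 2.50, 4.17 and 3.60 CPM in WT-CC, a difference of -0.66 (-1.33 to 0.0066, edgeR adjusted p = 0.364). Msh6 had 6.34 and 6.72 CPM in BKO-CC, against 8.27, 8.74 and 8.38 CPM in WT-CC, a difference of -0.36 (-0.73 to 0.012, edgeR adjusted p = 0.373). Uhrf1 and Msh6 were thus lower in every BKO-CC library, within the range that the test does not separate.

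Clspn had the lowest fold change in callosum, -1.59 ± 0.79 (edgeR adjusted p = 0.422), and the value rested on the second WT-CC replicate, without which it was -0.49 ± 0.35 (0.642). That library had 7.93 CPM of Clspn, and 8 markers of striatal neurons summed to 2701 CPM in it, against 820 and 1530 CPM in the other WT-CC libraries and 771 and 1004 CPM in BKO-CC. The part of striatal tissue in the level of Clspn was not tested. The same library had the highest Mki67 (4.84 CPM) and Top2a (5.51 CPM, a topoisomerase of dividing cells) of the callosum libraries. Of the 10 representatives, Mcm2 differed by -0.04 (95% interval -0.41 to 0.33), Pcna by -0.10 (-0.48 to 0.28), Rrm2 by -0.30 (-0.90 to 0.31), E2f1 by -0.0024 (-0.39 to 0.38) and Ccne1 by 0.18 (-0.54 to 0.90). Among related genes, 0 of the 37 other replication genes tested and 0 of 14 G2 and mitosis genes were called by edgeR, with 2 and 0 at an unadjusted p under 0.05. Of 26 tested genes of the list for G1 and S phase control (cyclins, kinases, inhibitors, retinoblastoma and E2F family genes) 1 was called. It was Cdkn1a, the inhibitor p21, with 47.3 and 72.3 CPM in BKO-CC, against 28.2, 30.6 and 27.4 CPM in WT-CC. Cdkn1a was higher by 1.07 ± 0.17 (edgeR adjusted p = 0.0245), and the call was lost when any 1 WT-CC library was left out (0.0595 to 0.186) and in 1 model of all libraries (0.127). In neurospheres Cdkn1a differed by 0.02 ± 0.22. Summed over 8 genes, markers of astrocytes were 4514 and 4864 CPM in BKO-CC, against 3139, 3237 and 2986 CPM in WT-CC. These 8 genes did not move together. Gfap and Aldh1l1 were called by edgeR in opposite directions, 1 higher and 1 lower. The median log2 fold change of the 8 genes was 0.08, with 5 above 0 and 3 below. The part of astrocytes in the levels of Cdkn1a and of the replication genes was not tested.

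Whether the genotype difference itself differed between sources was tested in 1 model of all 11 libraries. No gene of the 50 was called by edgeR, DESeq2 or limma-voom and none had an unadjusted p under 0.05 in edgeR. Over all 15322 genes tested 0.0131% were called, and 656 had an unadjusted p under 0.05. The median difference of log2 fold changes, neurospheres minus callosum, was 0.24, beside 0.04 over all genes. The smallest unadjusted p was that of Clspn (1.48, 95% interval -0.29 to 3.25, edgeR adjusted p = 0.999), which again rested on the second WT-CC replicate and was 0.39 without it. Mcm2 had 0.28 (-0.74 to 1.30), Pcna 0.49 (-0.40 to 1.38) and Rrm2 0.48 (-0.47 to 1.44). Without the first BKO-NSP replicate 0 genes of the 50 were called, beside 0.0654% of all genes, and the median was 0.09.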

How the data were processed

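The authors deposited raw read counts per gene for each library and 4 totals of unassigned reads, which entered neither library sizes nor tests. The counts that ignore strand were used. Reads had been aligned with STAR 2.7.1a to mm10, per the submitters' processing notes, with the gene annotation not given in the sources used. Per the labels' protocols, mRNA was selected with oligo dT or rRNA was removed (which of these is not said), cDNA was primed at random, and the libraries were run on a BGISEQ-500. Reads with several map positions count 0 in the files, so genes with close copies are undercounted. Replicates differed by 6.85 to 132.2 chi-square units per degree of freedom, and each was kept as its own sample.

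The main test was edgeR 4.0.16 (R 4.3.3, quasi-likelihood, robust, two-sided) with TMM scaling and the filterByExpr filter, adjusted by the Benjamini-Hochberg method over all genes tested, with 0.05 as the threshold. Each of the 4 pairwise comparisons was fitted on its own groups, and the interaction on all 11 libraries. The genotype and source comparisons draw on the same libraries. Levels are CPM over all 11 libraries, per kb of the longest GENCODE M21 transcript where stated. Ratios of single libraries used a pseudocount of 0.5 CPM. Alternatives were RLE scaling, library totals, no filter, a filter at 1 CPM, DESeq2 1.42.0, limma-voom (limma 3.58.1), 1 model of all libraries, the replicate number as a block, an offset for transcript length, and leaving out each replicate. The scripts were tested on simulated data. Members, lists and named genes (the 10 largest and 3 smallest called changes, or the 6 smallest p, 10 representatives, and Arntl, Mki67 and Top2a) were chosen with earlier results of these data known. Intervals are 95% confidence intervals of the log2 fold change between groups, based on the spread between libraries. The SE of edgeR fits was worked back from the F statistic of the quasi-likelihood test. Floors of 3 counts cover counting error only.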

Additional observations from a re-analysis of the deposited data

How the results depend on the processing

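The counts of members passing the test between sources (47 and 45, in either direction) stayed within 41 to 48 under every alternative run, and those between genotypes and in the interaction stayed at 0 with the exception of the fit without both first neurosphere replicates, which called 4. Medians of the members moved beyond their spread under library totals (3.19 between wild-type sources and 3.62 between Bmal1-/- sources). They also did so without the first WT-NSP replicate, to 0.60 between neurosphere genotypes, 2.23 between wild-type sources and 0.72 in the interaction. Without the first BKO-NSP replicate the median between Bmal1-/- sources did so, at 2.70. Leaving out 1 library gave medians of -0.020 to 0.60 between neurosphere genotypes, -0.12 to 0.02 between callosum genotypes, 2.23 to 2.86 between wild-type sources, 2.70 to 3.21 between Bmal1-/- sources and 0.078 to 0.72 in the interaction. Over all genes, calls between neurosphere genotypes numbered 1 here, 33 with DESeq2 and 255 without both first replicates, those between callosum genotypes 129 here and 27 to 321 under other settings, and those of the interaction 2 here and up to 37 with DESeq2.

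Same-numbered libraries did not deviate together in all pairs. Their correlations were 0.28, -0.01 and 0.31 between neurosphere genotypes, where pairs of unlike number had -0.39 to 0.27. They were 0.05 and 0.01 between callosum genotypes, and 0.12 and 0.15 in the only 2 pairs between Bmal1-/- sources. The 2 BKO-CC libraries mirror each other by construction, so pairs with them cannot decide. The replicate number was used as the name of a library, and a pairing in neurospheres was neither shown nor excluded. With a replicate block, 0 members were called between genotypes in either source and in the interaction, with medians of 0.23, -0.06 and 0.43, and 47 were called between sources in both genotypes, with medians of 2.60 and 3.13. The block added the calls of Ccne1 (1.06) and Rpa2 (0.95) between Bmal1-/- sources and changed no other call of a named gene.

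Signs turned for log2 fold changes that passed no test with all libraries, and the cause was not tested. Between neurosphere genotypes an offset for length gave 0.041 for Clspn, 0.035 for Arntl, 0.0018 for Mki67 and 0.030 for Top2a, with the replicate block 0.13, 0.041, 0.017 and 0.027, and library totals gave 0.040 for Arntl. Leaving out 1 library gave -0.68 to 0.11 for Hells, -0.042 to 0.78 for Mcm2, -0.23 to 0.92 for Cdc6, -0.47 to 0.16 for Pola1, -0.044 to 0.60 for Rrm2, -0.18 to 0.48 for Uhrf1, -0.35 to 0.35 for Clspn, -0.18 to 0.60 for E2f1, -0.10 to 0.072 for Arntl, -0.49 to 0.046 for Mki67 and -0.25 to 0.12 for Top2a. Without both first replicates (chosen after seeing the data), Hells had 0.18, Pola1 0.31, Clspn 0.37, Mki67 0.19, Top2a 0.21 and Uhrf1 0.50. Between callosum genotypes Cdc45 had 0.0071 with limma-voom, 0.094 with the block and 0.061 with block and length offset. There the block gave 0.0094 for Pcna, and block and length offset gave -0.038 for Ccne1. E2f1 had 0.0080 with RLE scaling, 0.00073 with no filter, 0.00010 with the stricter filter, 0.0088 with DESeq2, 0.012 with limma-voom, 0.16 with the block and 0.15 with block and length offset. Arntl had -0.025 with library totals, -0.043 with the block and -0.011 with block and length offset. Leaving out 1 callosum library gave -0.12 to 0.048 for Mcm2, -0.46 to 0.31 for Cdc45, -0.17 to 0.0073 for Pcna, -0.53 to 0.66 for Ccne1, -0.12 to 0.16 for E2f1, -0.13 to 0.19 for Arntl and -0.89 to 0.20 for Top2a. Between wild-type sources Fen1 had -0.10 with limma-voom, -0.093 with the block, -0.0068 with block and length offset and -0.57 to 0.34 with 1 library left out, and Dut had 0.28 with library totals. Leaving out 1 library gave -0.10 to 0.53 for Fen1 between Bmal1-/- sources, and -0.24 to 0.95 for Ccne1 and -0.17 to 0.63 for E2f1 in the interaction. Callosum values under 1 CPM rest on few counts, and groups have 2 or 3 libraries.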
